A study of Mus musculus with 23 samples.

Results

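Mest, Npr3, Nnat, Gpr50, Cav1, Cav2 and Egfl6 are genes linked in mice to the enlargement of fat cells and fat depots. These 7 genes were taken by name from a list drawn up with earlier results of these data known, out of 47311 genes for which transcript values could be summed. All 7 were listed and all 7 passed the filter on low counts, although Gpr50 passed it only through obese libraries. Levels were followed over 4 groups of female C57BL/6J mice that differed in diet and antibody, with 8 obese anti-PD-1, 5 obese IgG2a, 5 lean anti-PD-1 and 5 lean IgG2a animals and 1 library from each animal. Obese mice ate a diet with 60% of its energy from fat between 8 and 26 weeks of age. Lean mice, per their labels, ate a diet with 10% of its energy from fat, although the treatment text attached to every sample describes the high-fat diet only. All mice carried a tumor grown from 250000 E0771-luciferase cells, a mouse mammary carcinoma line, placed in mammary gland 4, and the tissue sequenced was the fat pad next to that tumor, so no group was free of tumor. Beginning on day 3 and ending on day 21, 200 µg of anti-PD-1, an antibody against a checkpoint receptor on T cells, or of its isotype control IgG2a was injected every 3 days.

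White fat grows when existing fat cells fill with triglyceride and swell, and when new fat cells form from progenitors. Mest encodes a hydrolase-like protein of the endoplasmic reticulum and Nnat a small membrane protein of the same organelle, and in mice each is expressed from the paternal allele alone. Npr3 encodes the receptor that removes natriuretic peptides, hormones that otherwise drive fat breakdown. Cav1 and Cav2 encode caveolins, the membrane proteins of caveolae, which cover much of the fat cell surface and flatten under stretch. Gpr50 encodes an orphan receptor related to the melatonin receptors, and Egfl6 a secreted matrix protein with EGF repeats.

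Libraries held 49438121 to 77369057 estimated counts. Counts are given below as CPM, scaled to library size with TMM factors. The labelled tissue was met by 13 adipocyte markers, none of them at 0, with a summed level of 7788 to 74547 CPM in obese and 26294 to 75733 CPM in lean pads. The mean log2 CPM of 9 B cell markers, called the B cell score here, was 5.30 to 8.46 in 11 libraries and -2.96 to -0.51 in the other 12, and a score above 4 is called high. High scores were found in 2 of 8 obese anti-PD-1, 2 of 5 obese IgG2a, 3 of 5 lean anti-PD-1 and 4 of 5 lean IgG2a libraries. The adipocyte markers summed to 7788 to 24145 CPM in the 4 obese pads with a high score, against 18353 to 74547 CPM in the 9 other obese pads. Markers of mammary epithelium summed to 307 to 1804 CPM in obese and 1297 to 4725 CPM in lean pads. Of 12 such markers 12 fell with obesity under anti-PD-1, 4 under IgG2a and 12 in the average. Of all genes tested 4.85%, 3.12% and 8.15% fell in these comparisons. Obese IgG2a 5 stood apart with liver markers (score 9.31), and tumor-like markers were highest in obese IgG2a 5 (score 6.41) and 2 (6.00), followed by obese IgG2a 4 and obese anti-PD-1 8 (2.53), against at most 0.31 in lean pads. In bulk tissue, fewer cells of a type and less RNA per cell cannot be told apart, and this holds for every level given here.

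Mest (ENSMUSG00000051855) lies on chromosome 6 from 30723547 to 30748465 on the plus strand of GRCm38, and Copg2 overlaps it on the opposite strand. Npr3 (ENSMUSG00000022206) lies on chromosome 15 from 11839896 to 11907287 on the minus strand. Nnat (ENSMUSG00000067786) occupies 157560078 to 157562522 of chromosome 2 inside Blcap, a gene of the opposite strand. Gpr50 (ENSMUSG00000056380) and Egfl6 (ENSMUSG00000000402) lie on chromosome X, and Cav2 (ENSMUSG00000000058, 17281185 to 17289115) and Cav1 (ENSMUSG00000007655, 17306335 to 17341452) follow each other on the plus strand of chromosome 6. The libraries kept no strand, so reads of overlapping genes on opposite strands could be divided only by sequence unique to each transcript.

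RefSeq promoters (250 bases before to 50 after the start, GRCm38.p6) were matched for 7 of 7 genes. The first 4 below belong to Mest, Npr3 and Nnat, which rose with obesity, and to Gpr50, which was detected mainly in obese pads, and the last 2 to the caveolin pair, whose levels moved closely together. All are written 5′ to 3′ on the strand of the gene, and capitals mark matches, on either strand, to the TATA box TATAAA, the CCAAT box CCAAT, the GC box GGGCGG, the C/EBP half-site TTGCG, the nuclear receptor half-site AGGTCA, the AP-1 site TGAGTCA or the E-box CACGTG.
Mest, chr6:30737800-30738099, plus strand: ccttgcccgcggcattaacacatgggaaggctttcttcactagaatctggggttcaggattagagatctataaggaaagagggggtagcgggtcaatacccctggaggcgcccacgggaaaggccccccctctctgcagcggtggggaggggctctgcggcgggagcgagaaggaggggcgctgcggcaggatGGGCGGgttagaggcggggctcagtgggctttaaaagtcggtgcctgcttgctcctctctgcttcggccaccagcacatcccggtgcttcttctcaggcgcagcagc
Npr3, chr15:11907322-11907621, minus strand: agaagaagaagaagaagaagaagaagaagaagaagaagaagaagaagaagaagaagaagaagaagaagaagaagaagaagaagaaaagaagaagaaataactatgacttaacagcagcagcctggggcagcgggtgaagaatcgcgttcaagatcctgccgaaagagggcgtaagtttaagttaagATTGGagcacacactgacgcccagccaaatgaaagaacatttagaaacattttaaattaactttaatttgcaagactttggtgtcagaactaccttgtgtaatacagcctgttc
Nnat, chr2:157559828-157560127, plus strand: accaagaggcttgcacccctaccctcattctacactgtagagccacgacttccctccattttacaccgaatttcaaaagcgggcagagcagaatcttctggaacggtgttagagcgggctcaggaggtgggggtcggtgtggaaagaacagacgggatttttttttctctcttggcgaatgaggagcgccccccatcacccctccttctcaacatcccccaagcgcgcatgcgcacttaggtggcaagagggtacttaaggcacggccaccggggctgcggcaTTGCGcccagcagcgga
Gpr50, chrX:71663417-71663716, plus strand: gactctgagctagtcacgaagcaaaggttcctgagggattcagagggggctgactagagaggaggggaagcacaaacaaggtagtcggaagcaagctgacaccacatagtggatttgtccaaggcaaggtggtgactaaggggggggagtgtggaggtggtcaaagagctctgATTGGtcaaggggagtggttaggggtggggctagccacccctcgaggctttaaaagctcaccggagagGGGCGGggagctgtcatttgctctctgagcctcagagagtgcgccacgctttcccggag
Cav1, chr6:17306085-17306384, plus strand: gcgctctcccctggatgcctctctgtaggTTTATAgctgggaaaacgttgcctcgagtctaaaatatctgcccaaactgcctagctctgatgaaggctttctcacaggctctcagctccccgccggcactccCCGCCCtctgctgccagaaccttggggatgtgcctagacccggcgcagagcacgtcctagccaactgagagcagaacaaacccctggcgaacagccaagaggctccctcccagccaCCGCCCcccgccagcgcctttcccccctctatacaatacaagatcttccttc
Cav2, chr6:17280935-17281234, plus strand: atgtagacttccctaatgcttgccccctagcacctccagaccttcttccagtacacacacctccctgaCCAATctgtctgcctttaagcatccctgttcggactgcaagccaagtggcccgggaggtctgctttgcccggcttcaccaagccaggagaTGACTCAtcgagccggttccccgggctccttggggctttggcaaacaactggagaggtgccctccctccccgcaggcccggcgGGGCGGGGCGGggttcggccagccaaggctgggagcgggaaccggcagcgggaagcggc

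GGGCGG, found in 35.7% of the 32851 promoters of this length, was present in the Mest, Gpr50, Cav1, Cav2 and Egfl6 windows and not in those of Npr3 and Nnat. CCAAT (37.4% of all promoters) was present for Npr3, Gpr50, Cav2 and Egfl6. TTGCG (17.4%) was found for Nnat alone, TATAAA (13.6%) for Cav1 alone and TGAGTCA (5.2%) for Cav2 alone. AGGTCA (16.3%) and CACGTG (7.15%) occurred in none of the 10 windows of the 7 genes. The CG dinucleotide, the site of DNA methylation, occurred 17 times in the Nnat window and in the Mest window printed, 6 times in that of Npr3, and a median of 7 times over all promoters. No motif was shared by the first 4 windows, and a match is a description of these letters only.

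Mest, Npr3 and Nnat were higher in obese than in lean fat pads under either antibody, and Gpr50 was detected at more than a few counts in part of the obese pads alone. Cav1 and Cav2 were high in every pad and their obesity effects missed the threshold, and Egfl6 was barely detected anywhere. Each comparison below used edgeR's quasi-likelihood test on all 19882 genes passing the filter, with Benjamini-Hochberg adjustment, and a gene is said to rise or fall only at an adjusted p under 0.05. Mest, Npr3 and Nnat, 3 of the 7 genes, rose with obesity under anti-PD-1, where 5.2% of all genes tested rose. The same 3 rose under IgG2a, against 2.68% of all genes, and in the average over both antibodies, against 10.6%. Gpr50 is not counted here, because it passed the filter only through the obese libraries in which it is high, and the 7 genes are no random draw, so the shares are given as background only. None of the 7 fell in these 3 comparisons, where 4.85% of all genes fell under anti-PD-1, 3.12% under IgG2a and 8.15% in the average.

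**Figure D1:**
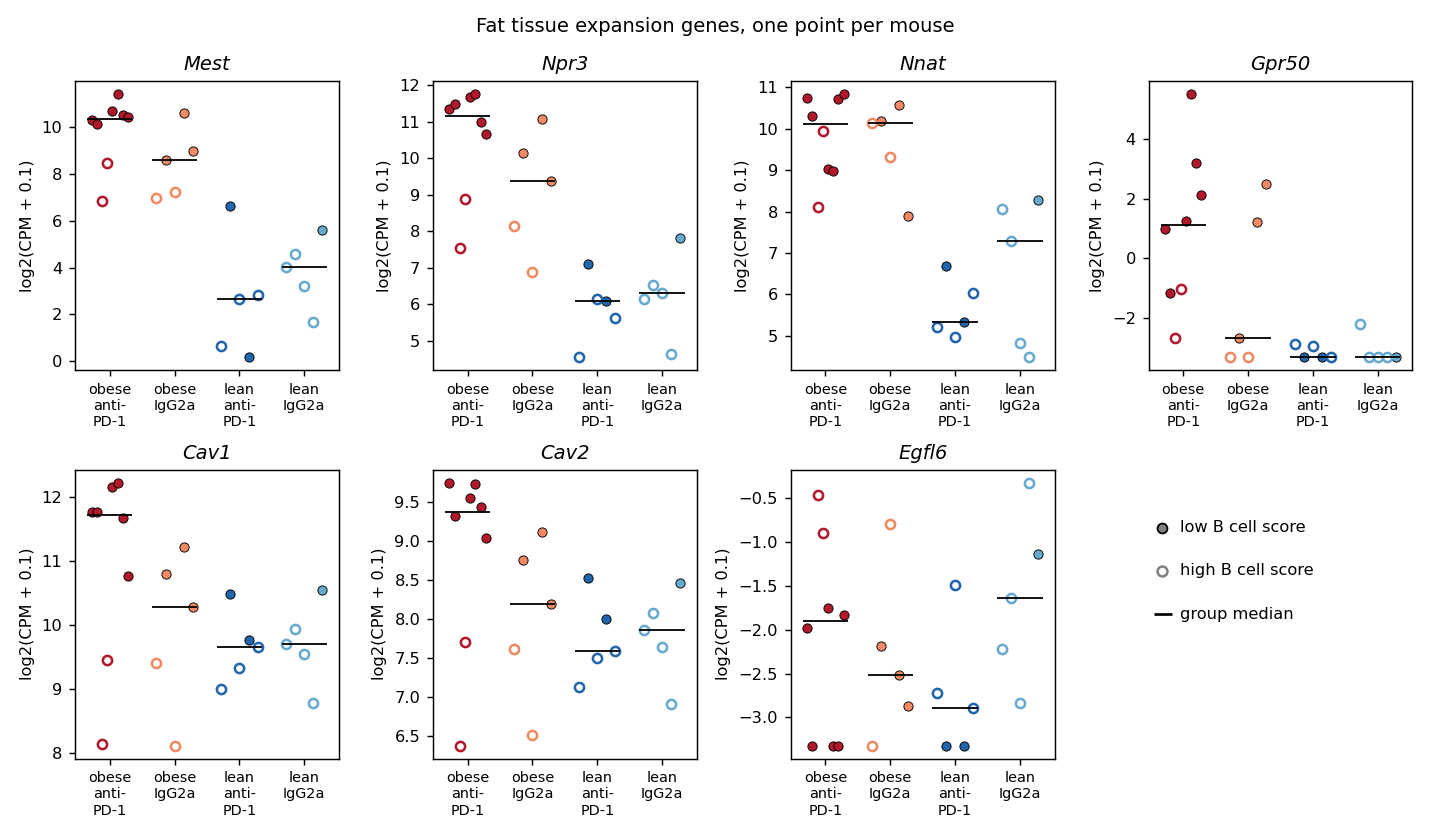
Level of each gene in each of the 23 mice as log2(CPM + 0.1), by group, with open points for a high B cell score and a line at the group median; axes are scaled per gene. Every obese point of Mest lies above every lean point, and the open obese points are the lowest of their groups for Mest, Npr3, Cav1 and Cav2. The fat cell genes Lep and Plin1, not drawn, were lowest in the same obese pads. The share of all genes with that order was not counted.

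Mest had a lowest, median and highest level of 115, 1315 and 2714 CPM in the 8 obese anti-PD-1 pads. It had 125, 390, 148, 1543 and 512 CPM in obese IgG2a pads 1 to 5. It had 1.49, 97.5, 6.23, 1.04 and 7.04 CPM in lean anti-PD-1 pads 1 to 5, against 16, 23.7, 9.15, 3.07 and 48.4 CPM in lean IgG2a pads 1 to 5. All 13 obese pads were above all 10 lean pads, a separation shown by 0.226% of the genes tested and by no other of the 7. The closest pads were obese anti-PD-1 3, with 115 CPM, and lean anti-PD-1 2, with 97.5 CPM. The log2 fold change was 5.79 (SE 1.21; edgeR's test, adjusted p = 0.00399) under anti-PD-1 and 4.76 (SE 1.18; adjusted p = 0.0193) under IgG2a. Averaged over the antibodies it was 5.28 (SE 0.843; edgeR's test, adjusted p = 1.4e-04), with Mest at 982 ± 784 CPM in obese and 21.4 ± 30.3 CPM in lean pads (SD, n = 13 and 10). By size of that fold change Mest was number 78 of 19882 genes.

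The spread of Mest was wide in every group. In lean anti-PD-1 pads the SD of its log2 level was 2.58, against 0.55 for Cav1 in the same pads. Copg2, the overlapping gene of the opposite strand, had 109 ± 58 CPM in obese and 56.8 ± 11.7 CPM in lean pads and also rose in the average, by 0.83 (SE 0.229; edgeR's test, adjusted p = 0.0145). Reads of Mest and Copg2 over shared sequence cannot be told apart without strand, and how many were shared was not tested. Of 11 listed Mest transcripts, Mest-211 (2561 bases, with the promoter printed above) held a mean of 91.3% of the gene's counts in obese pads and at least 60.4% in each. Mest-210, whose promoter lies upstream at chr6:30733256-30733555, held 0 to 39.6% of the counts in obese and 0 to 100% in lean pads. The lean shares rest on as few as 54 counts for the whole gene, so they describe single pads only.

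Npr3 had a lowest, median and highest level of 186, 2314 and 3461 CPM in obese anti-PD-1 pads. It had 283, 1123, 119, 2163 and 664 CPM in obese IgG2a pads 1 to 5. In lean anti-PD-1 pads 1 to 5 it had 23.6, 139, 71.2, 68.2 and 49.2 CPM, against 71.2, 92, 79.7, 24.8 and 226 CPM in lean IgG2a pads 1 to 5. The groups did not overlap under anti-PD-1, as for 1.71% of genes tested, and under IgG2a, where 1.82% of genes and Mest alone of the 7 were separated, lean IgG2a 5 was above obese IgG2a 3. The clearance receptor rose by 4.88 (SE 0.83; edgeR's test, adjusted p = 6.7e-04) under anti-PD-1 and by 3.14 (SE 0.785; adjusted p = 0.0204) under IgG2a. The average was 4.01 (SE 0.568; edgeR's test, adjusted p = 3.7e-05), a 16.1-fold difference. All of its reads came from Npr3-201, the only one of 5 annotated transcripts in the files.

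The other natriuretic peptide receptors, Npr1 and Npr2, did not pass the test. Npr1, the signaling receptor for atrial and B-type peptides, had 55.6 CPM in obese and 52 CPM in lean pads, with an averaged log2 fold change of 0.02 (SE 0.25; edgeR's test, adjusted p = 0.977). Npr2, the receptor for C-type peptide, had 58.3 CPM in obese and 46.5 CPM in lean pads, and 0.24 (SE 0.301; adjusted p = 0.669). Of 14 genes listed for natriuretic peptides, their processing and their cyclic GMP effectors, 11 were tested, and in the average 2 rose and none fell, where 10.6% of all genes rose and 8.15% fell. With Npr3 itself left aside this is 1 of 10, near the share of all genes. The 1 was Nppb, encoding the B-type peptide, which remained low. It had 0.256 ± 0.474 CPM in obese anti-PD-1 and 3.38 ± 5.1 CPM in obese IgG2a pads, against 0.0345 ± 0.00293 CPM in lean anti-PD-1 pads and 0 in lean IgG2a pads. As with Gpr50, Nppb passed the filter only through obese libraries, with at most 0.0383 CPM in lean anti-PD-1 pads. Its call is therefore given as a description only. The median averaged log2 fold change of the list was 0.24, beside 0.12 for all genes tested.

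Nnat had a lowest, median and highest level of 278, 1128 and 1831 CPM in obese anti-PD-1 pads. It had 1136, 1172, 642, 1519 and 239 CPM in obese IgG2a pads 1 to 5. In lean anti-PD-1 pads 1 to 5 it had 37, 102, 31, 40.3 and 65.4 CPM, against 269, 157, 28.1, 22.3 and 311 CPM in lean IgG2a pads 1 to 5. Obese and lean pads did not overlap under anti-PD-1, and under IgG2a the overlap came from obese IgG2a 5, the pad with liver markers, which was below lean IgG2a 1 and 5. Nnat rose by 4.32 (SE 0.714; edgeR's test, adjusted p = 5.2e-04) under anti-PD-1 and by 2.58 (SE 0.681; adjusted p = 0.0274) under IgG2a. The average was 3.45 (SE 0.49; edgeR's test, adjusted p = 3.8e-05), a 10.9-fold difference. Blcap, the gene around Nnat on the opposite strand, had 125 ± 45.2 CPM in obese and 103 ± 31.9 CPM in lean pads, with an averaged value of 0.22 (SE 0.216; adjusted p = 0.55).

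Nnat varied most within the lean IgG2a group of the 4 groups. The SD of its log2 level was 1.01 in obese anti-PD-1, 1.07 in obese IgG2a, 0.70 in lean anti-PD-1 and 1.81 in lean IgG2a pads. Of the 10 listed transcripts, Nnat-202 led with 59.9% ± 12.7 of the gene's TPM, a level scaled by transcript length, in obese and 59.6% ± 12.8 in lean pads (SD, n = 13 and 10). The share of this transcript differed between obese and lean pads by less than its SD.

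Mest and Nnat were set beside 26 other imprinted genes or neighbours of imprinted regions, of which 24 were tested with them. Of these 26 tested genes, Mest and Nnat included, 10 rose in the average over antibodies and 2 fell, where 10.6% of all genes rose and 8.15% fell, with a median log2 fold change of 0.77, beside 0.12 for all genes. Under anti-PD-1 9 rose and 1 fell, where 5.2% of all genes rose and 4.85% fell. Under IgG2a 5 rose and 2 fell, where 2.68% of all genes rose and 3.12% fell. These counts again include Mest and Nnat. The list was drawn up with earlier results of these data known, so the counts give no independent support. Peg3, a zinc finger gene of a paternally expressed cluster, had 491 ± 268 CPM in obese anti-PD-1 and 309 ± 397 CPM in obese IgG2a pads, against 20.5 ± 11.3 CPM in lean anti-PD-1 and 30.3 ± 14.3 CPM in lean IgG2a pads. It rose by 3.97 (SE 0.546; edgeR's test, adjusted p = 2.7e-05). Klf14, a transcription factor gene of the Mest region that is expressed from the maternal allele, rose by 4.02 (SE 0.592; adjusted p = 5.8e-05) at 25.2 CPM in obese and 1.38 CPM in lean pads. Mcts2, a retrogene whose reads may be shared with its parent gene Mcts1, fell by 1.31 (SE 0.21; adjusted p = 1.4e-04) and the non-coding RNA H19 fell by 2.66 (SE 0.587; adjusted p = 0.00294), while Igf2 (-0.37), Gnas (-0.28) and Ndn (-0.03) did not pass. The allele of origin was not measured.

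Gpr50 varied widely among obese pads. Its counts in obese anti-PD-1 pads 1 to 8 were 123, 22, 4, 29, 152, 2351, 546 and 281, and in obese IgG2a pads 1 to 5 they were 0, 4, 0, 117 and 304. In lean pads it had 4 counts over the 5 anti-PD-1 libraries and 6 over the 5 IgG2a libraries, with 7 of 10 at 0. At least 10 counts were present in 9 of 13 obese pads and in none of 10 lean pads. Since Gpr50 passed the filter only through the group in which it is high, its fitted differences are given as a description. They were 9.02 (SE 2.26; edgeR's test, adjusted p = 0.0138) under anti-PD-1, 6.06 (SE 2.03; adjusted p = 0.0813) under IgG2a and 7.54 (SE 1.51; adjusted p = 0.00136) in the average. They rest on 10 lean counts and depend on the prior count of the fit. Of the alternatives, 3 put the average above the threshold, with an adjusted p of 0.0566 by voom, 0.0623 on log2(TPM + 1) and 0.0696 among pads with a low B cell score, and the same 3 did so under anti-PD-1 (0.061, 0.0656 and 0.0769). With obese anti-PD-1 6 at 45.5 CPM and the next pad at 9.1 CPM, the mean of 7.99 ± 15.5 CPM in obese anti-PD-1 pads was set largely by 1 mouse.

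The 2 melatonin receptors to which Gpr50 is related, Mtnr1a and Mtnr1b, had a mean of 0 CPM in obese and lean pads and were not tested. Of the 5 genes on that list 3 were tested, and the other two, Lepr and Tgfbr1, did not pass in the average (adjusted p = 0.888 and 0.511 by edgeR's test). In the 4 obese pads with a high B cell score Gpr50 had 0 to 0.387 CPM, against 0.0534 to 45.5 CPM in the 9 others. The adipocyte score was 8.24 to 9.61 in those 4 pads and 9.11 to 11.05 in the 9 others. The score of 11 endothelial markers was 4.39 to 4.94 in those 4 pads and 5.03 to 6.72 in the 9 others. The part of either score in the Gpr50 counts was not tested.

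Egfl6 gave 161 counts over all 13 obese pads and 116 over all 10 lean pads, and no library exceeded 47. Its mean was 0.177 ± 0.208 CPM in obese and 0.177 ± 0.22 CPM in lean pads. Egfl6 passed in no comparison, with an adjusted p of 0.585 under anti-PD-1, 0.822 under IgG2a and 0.916 in the average (edgeR's test). At this level a change in the gene would be hard to detect, and no fold is given. Of 9 genes listed for EGF-like matrix proteins and their integrin partners, 1 rose in the average, about the 10.6% found for all genes. The 1 was Itgb1, which encodes the integrin beta-1 chain. It had 586 ± 215 CPM in obese anti-PD-1 and 537 ± 240 CPM in obese IgG2a pads, against 299 ± 59 CPM in lean anti-PD-1 and 278 ± 44 CPM in lean IgG2a pads, with a log2 fold change of 0.96 (SE 0.226; edgeR's test, adjusted p = 0.00477).

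Cav1 had a lowest, median and highest level of 284, 3361 and 4771 CPM in obese anti-PD-1 pads. It had 678, 1785, 278, 2394 and 1247 CPM in obese IgG2a pads 1 to 5. In lean anti-PD-1 pads 1 to 5 it had 511, 1427, 642, 872 and 807 CPM, against 836, 983, 747, 440 and 1494 CPM in lean IgG2a pads 1 to 5. Obese pads thus reached both the highest and the lowest values, and the groups overlapped. The log2 fold change was 1.71 (SE 0.573; edgeR's test, adjusted p = 0.0604) under anti-PD-1, 0.50 (SE 0.596; adjusted p = 0.75) under IgG2a and 1.11 (SE 0.41; adjusted p = 0.0628) in the average. The approximate 95% interval of the average, 0.30 to 1.91, lies above 0, and the adjusted p misses the threshold.

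Cav2 had a lowest, median and highest level of 82.9, 666 and 859 CPM in obese anti-PD-1 pads. It had 196, 434, 91.2, 557 and 291 CPM in obese IgG2a pads 1 to 5. In lean anti-PD-1 pads 1 to 5 it had 139, 368, 181, 256 and 193 CPM, against 232, 269, 199, 120 and 353 CPM in lean IgG2a pads 1 to 5. The same obese pads were lowest as for Cav1, obese anti-PD-1 3 and obese IgG2a 3. The log2 fold change was 1.34 (SE 0.475; edgeR's test, adjusted p = 0.0755) under anti-PD-1, 0.42 (SE 0.502; adjusted p = 0.754) under IgG2a and 0.88 (SE 0.343; adjusted p = 0.0772) in the average. Of 38 alternatives, 10 brought Cav1 and 9 brought Cav2 past the threshold in the average, among them DESeq2 (adjusted p = 0.0182 for Cav1 and 0.0322 for Cav2). Leaving out 1 mouse did so for Cav1 without obese anti-PD-1 3 (adjusted p = 0.0191) or 4 (0.0367), obese IgG2a 1 (0.0469) or 3 (0.0273), or lean IgG2a 5 (0.0471). For Cav2 it did so without obese anti-PD-1 3 (0.0207) or 4 (0.0489) or obese IgG2a 3 (0.0325), and the other 18 of 23 mice for Cav1 and 20 of 23 for Cav2 left it not called.

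The fitted obesity effect of both caveolins was above 0 among pads with a low B cell score and below 0 among pads with a high one. Among pads with a low score Cav1 had 1247 to 4771 CPM in 9 obese and 872 to 1494 CPM in 3 lean pads, and its fold change under anti-PD-1 was 1.54 (edgeR's test, adjusted p = 0.0305), with Cav2 at 1.12 (adjusted p = 0.0296). Averaged over the antibodies these were 0.88 (adjusted p = 0.113) for Cav1 and 0.67 (adjusted p = 0.0992) for Cav2. Among pads with a high score Cav1 had 278 to 701 CPM in 4 obese and 440 to 983 CPM in 7 lean pads, and its fold change was -0.37 (edgeR's test, adjusted p = 0.71) under anti-PD-1 and -0.52 (adjusted p = 0.276) in the average, with Cav2 at -0.19 (adjusted p = 0.861) and -0.36 (adjusted p = 0.427). The difference between the sets was not tested. The sets also differed in endothelial markers. The endothelial score was 5.03 to 6.72 in obese and 5.43 to 6.46 in lean pads with a low B cell score. It was 4.39 to 4.94 in obese and 5.32 to 6.26 in lean pads with a high one. With the adipocyte marker score as a covariate, Cav1 rose by 1.81 (edgeR's test, adjusted p = 1.1e-05) and Cav2 by 1.51 (adjusted p = 1.6e-06) in the average, and with the B cell score as a covariate the values were 0.35 and 0.31 and did not pass. Mest, Npr3 and Nnat were higher in all 4 obese than in all 7 lean pads with a high score, as were 5.73% of genes tested. Mest and Npr3 were higher in all 9 obese than in all 3 lean pads with a low score, as were 9.02%.

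Cav1 was several times as abundant as Cav2 per length in every pad. The ratio of Cav1 to Cav2 TPM was 7.10 ± 2.58 in obese anti-PD-1 pads (n = 8) and 6.11 ± 1.86 in obese IgG2a pads, against 5.61 ± 0.727 in lean anti-PD-1 and 5.94 ± 0.94 in lean IgG2a pads (SD, n = 5 each). Among obese pads the ratio was 3.83 to 5.16 where the B cell score was high and 4.79 to 11.2 where it was low. Cav1-201 held 65.3% ± 11.7 of Cav1 TPM in obese and 65.8% ± 7.56 in lean pads, and Cav2-201 held 97.4% ± 3.35 of Cav2 TPM in obese and 98.6% ± 0.485 in lean pads (SD, n = 13 and 10).

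Of 12 genes listed for caveolae, 3 rose in the average over antibodies and none fell, where 10.6% of all genes rose and 8.15% fell, with a median log2 fold change of 0.75, beside 0.12 for all genes. Cavin3, encoding a coat protein of caveolae, had 338 ± 169 CPM in obese anti-PD-1 and 184 ± 125 CPM in obese IgG2a pads, against 62.3 ± 38 CPM in lean anti-PD-1 and 71.3 ± 34.1 CPM in lean IgG2a pads, and rose by 1.90 (SE 0.382; edgeR's test, adjusted p = 0.00133). Flot1, a flotillin of other membrane microdomains, rose by 0.69 (SE 0.181; adjusted p = 0.00959), and Pacsin2, which bends membranes at caveolae, by 0.55 (SE 0.165; adjusted p = 0.0227). Cavin1 (0.84, SE 0.345; adjusted p = 0.0939), Cavin2 (0.81, SE 0.327; adjusted p = 0.0878) and Ehd2 (0.99, SE 0.386; adjusted p = 0.0768), which form the coat and the neck of caveolae, missed the threshold as Cav1 and Cav2 did. Under anti-PD-1 2 of the 12 rose, where 5.2% of all genes rose. Under IgG2a none passed, where 2.68% of all genes rose and 3.12% fell.

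**Figure D2:**
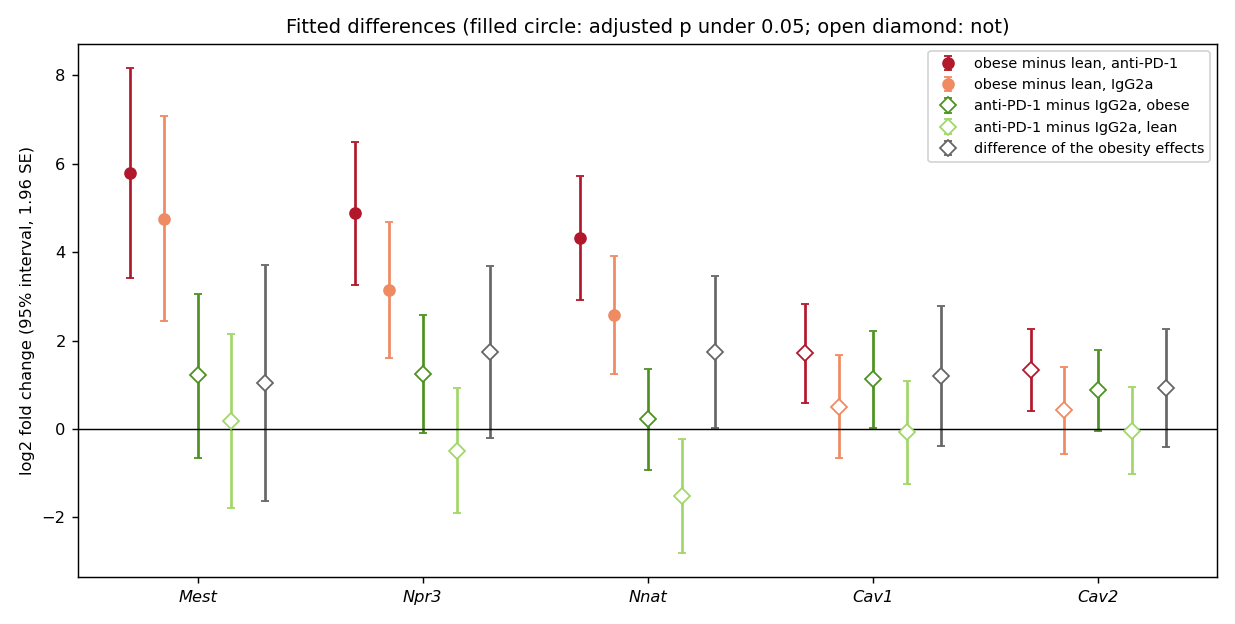
Log2 fold changes of 5 genes with approximate 95% intervals, from the standard error, for 5 comparisons, coloured by comparison; filled circles passed an adjusted p of 0.05 and open diamonds did not. For Mest, Npr3 and Nnat both obesity effects are filled and lie between 2.58 and 5.79, and no antibody comparison is filled for any gene.

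Anti-PD-1 changed none of the 7 genes past the threshold in obese or lean pads. In obese pads 0 of 7 passed edgeR's test, where 0.538% of all genes did. None of the 7 had an unadjusted p under 0.05 there, as 13.6% of all genes had. DESeq2 called none of the 7 at an adjusted p under 0.05. Cav1 came nearest, with 2785 ± 1692 CPM under anti-PD-1 and 1276 ± 846 CPM under IgG2a (log2 fold change 1.13, SE 0.558; edgeR's test, adjusted p = 0.38). Npr3 had 1.24 (95% interval -0.09 to 2.58), Mest 1.21 (-0.65 to 3.06), Cav2 0.88 (-0.04 to 1.79) and Nnat 0.22 (-0.92 to 1.36) on the log2 scale. The intervals of Mest and Npr3 reach 3.06 and 2.58, so differences up to those sizes lie inside them.

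In lean pads 0 of 7 passed, and the share of all genes was 0%. DESeq2, at an adjusted p under 0.05, called none of the 7 and 22 genes in all. By unadjusted p under 0.05, edgeR counted 1 of 7 genes here and 2.37% of all genes. The 1 was Nnat, with 55 ± 29.1 CPM under anti-PD-1 and 157 ± 133 CPM under IgG2a (log2 fold change -1.52, SE 0.657; edgeR's test, adjusted p = 1). Cav1 had -0.08 (95% interval -1.24 to 1.09) and Cav2 -0.04 (-1.03 to 0.94), so that a fold of the size seen for Mest or Nnat in obesity lies outside them. The averaged obesity effect of Cav2 itself, 0.88, lies inside its interval, and that of Cav1, 1.11, lies just above its own.

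The obesity effect was numerically larger under anti-PD-1 than under IgG2a for Mest, Npr3, Nnat, Gpr50, Cav1 and Cav2, but the difference itself passed for none. The test of the interaction gave 1.74 for Nnat (SE 0.88; edgeR's test, adjusted p = 0.702), 1.73 for Npr3 (SE 0.991; adjusted p = 0.73), 1.20 for Cav1 (SE 0.808; adjusted p = 0.767) and 1.03 for Mest (SE 1.37; adjusted p = 0.922). None of the 7 had an unadjusted p under 0.05, and DESeq2 called none of them at an adjusted p under 0.05. Over all genes 0% passed, while 7.29% had an unadjusted p under 0.05. DESeq2 called 50 genes at an adjusted p under 0.05. The 2 obesity comparisons use different mice, but the antibody comparisons share mice with them.

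Mest, Npr3 and Nnat calls were firmer under anti-PD-1 than under IgG2a. Under anti-PD-1 each of the 3 was called whichever single mouse was left out. Under IgG2a each of the 3 lost its call in 3 of the 10 fits that left out 1 mouse. Of the 7 genes, Gpr50 included, 1 was called under IgG2a without lean IgG2a 1 and none without lean IgG2a 2 or 3. The fold changes there ran over 3.88 to 5.40 for Mest, 2.48 to 3.71 for Npr3 and 2.31 to 3.00 for Nnat as each mouse was left out, with an adjusted p of at most 0.0686, 0.0704 and 0.0706 by edgeR's test. Without obese IgG2a 2 and 5 together, the pads with the highest tumor-like scores, none was called, with fold changes of 4.89 for Mest (edgeR's test, adjusted p = 0.0714), 3.09 for Npr3 (adjusted p = 0.0883) and 2.80 for Nnat (adjusted p = 0.0573). Without obese IgG2a 5 alone, the 3 genes passed at 4.75, 3.20 and 2.84. With the 10 IgG2a mice fitted by themselves 1 of 7 was called. Among pads with a low B cell score, which leave 1 lean IgG2a mouse, none was called under IgG2a, and under anti-PD-1 Mest was not (4.94, adjusted p = 0.0507). Among pads with a high score Nnat was not called under anti-PD-1 (3.86, adjusted p = 0.0659) or IgG2a (2.88, adjusted p = 0.0607), nor Npr3 under IgG2a (1.56, adjusted p = 0.0927).

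**Figure D3:**
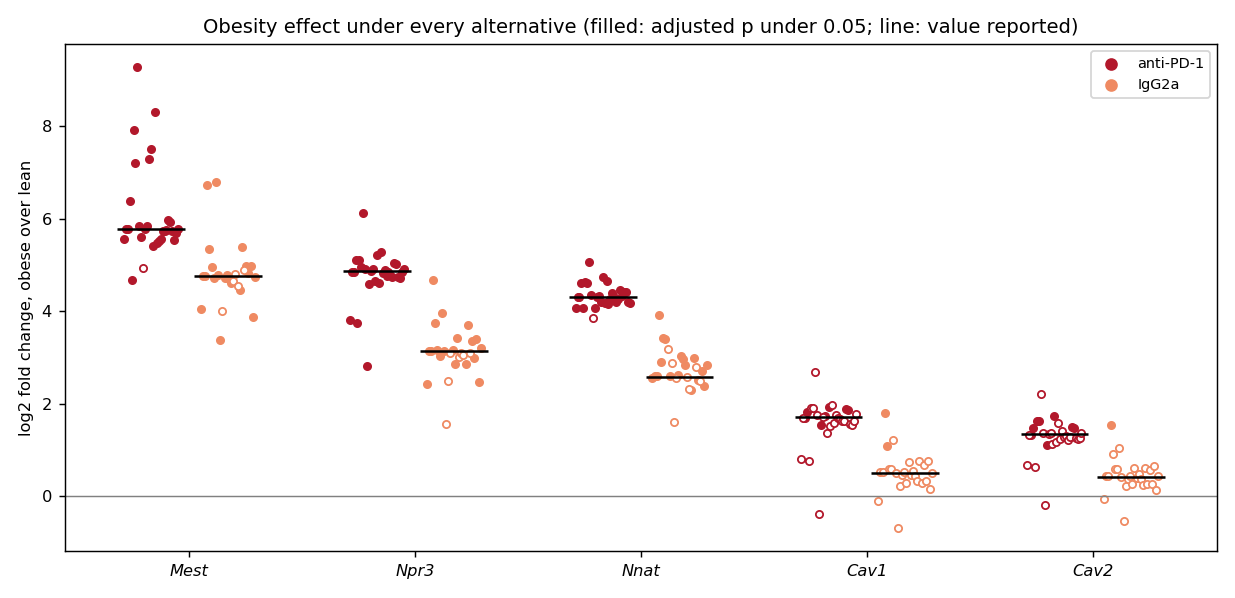
Obesity effect of 5 genes on the log2 scale, obese over lean, under every alternative fit (points; filled at an adjusted p under 0.05) beside the reported value (black line), for each antibody. Mest, Npr3 and Nnat are at 1.56 or above throughout, and Cav1 and Cav2 lie below 0 among pads with a high B cell score and, under IgG2a, with that score as a covariate.

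Per length, Cav1, Nnat and Mest were the most abundant of the 7 in obese anti-PD-1 pads, with a mean TPM of 2543 ± 1914, 1703 ± 929 and 1014 ± 814, followed by Npr3 (412 ± 262) and Cav2 (315 ± 169). Each of these 5 overlapped its neighbour in that order within their SDs, and Gpr50 (4.36 ± 8.99 TPM) and Egfl6 (0.101 ± 0.115 TPM) were well below. In obese IgG2a pads Nnat (1292 ± 862 TPM) and Cav1 (1124 ± 912 TPM) led, ahead of Mest (404 ± 518), Npr3 (170 ± 176) and Cav2 (161 ± 115), again with overlapping neighbours. In lean anti-PD-1 pads Cav1 led with 488 ± 278 TPM and Cav2 (84.3 ± 36.1) was second, and Nnat (65.1 ± 36.8) overlapped Cav2. In lean IgG2a pads Cav1 led with 514 ± 231 TPM, ahead of Nnat (152 ± 127) and Cav2 (84.1 ± 29.3). Mest and Npr3 stood at 9.85 ± 18.1 and 9.73 ± 6.56 TPM in lean anti-PD-1 and at 8.60 ± 6.36 and 13.1 ± 9.93 TPM in lean IgG2a pads. Their SDs overlapped, but within single pads Npr3 was above Mest in every lean pad except lean anti-PD-1 2 (20.5 against 42.2 TPM). In every obese pad Mest was above Npr3. Summed TPM gives weight to short transcripts: Mest-204, of 417 bases, held 15.7% of Mest TPM and 1.76% of its counts in obese pads.

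Set against Adipoq, which encodes adiponectin and is made by fat cells, Mest, Npr3 and Nnat did not overlap between obese and lean pads. Adipoq itself had 1823 ± 966 CPM in obese and 2034 ± 841 CPM in lean pads, with an averaged log2 fold change of -0.22 (SE 0.328; edgeR's test, adjusted p = 0.729). Mest had 110 to 1552 counts per 1000 Adipoq counts in obese and 0.535 to 38.7 in lean pads. Npr3 had 173 to 1978 in obese and 20.3 to 67.4 in lean pads, and Nnat 262 to 998 in obese and 20.9 to 95.7 in lean pads. Of all genes tested 0.759% were separated in this way. Cav1 had 403 to 2744 per 1000 in obese and 297 to 613 in lean pads and overlapped, as did Cav2 with 133 to 485 and 82.5 to 164. Per Adipoq count Nnat was higher in the 4 obese pads with a high B cell score (877 to 998) than in the 9 with a low score (262 to 639). Mest had 110 to 375 in the obese pads with a high score and 209 to 1552 in those with a low one, so its ranges overlapped. Adipoq itself differed between these pads, with 306 to 1139 CPM at a high and 912 to 3375 CPM at a low score. The share of all genes separated by score per Adipoq count was not counted, so the Nnat values describe these pads only.

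**Figure D4:**
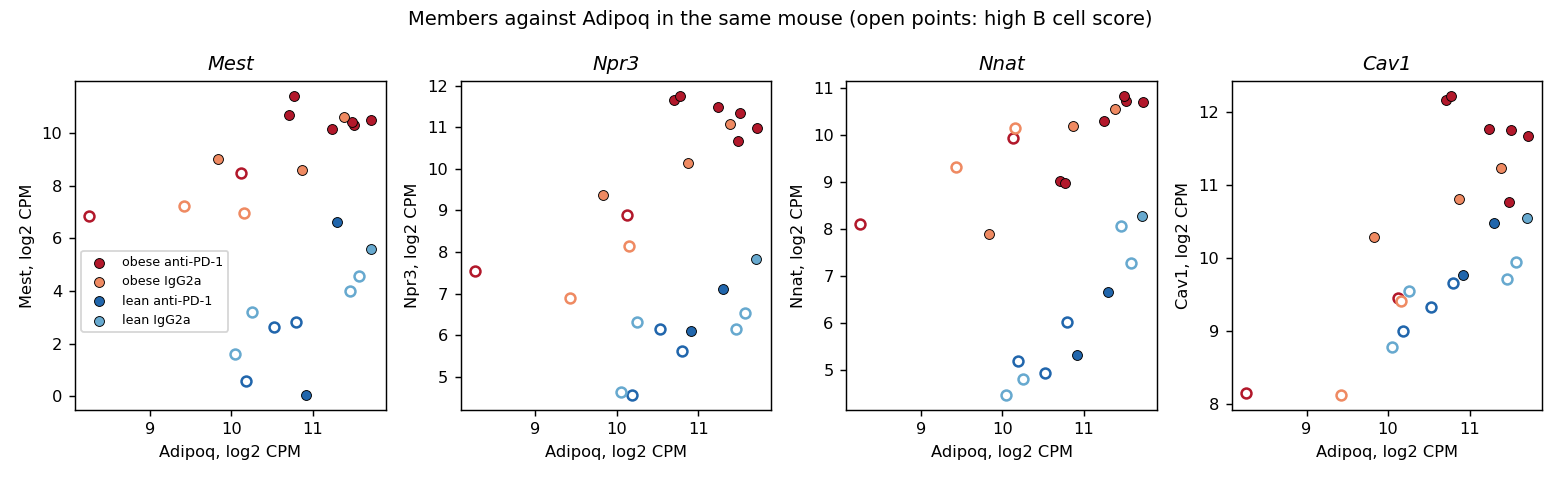
Log2 CPM of Mest, Npr3, Nnat and Cav1 (vertical) against Adipoq (horizontal) in each mouse, coloured by group, with open points for a high B cell score. At a like Adipoq level the obese points of Mest, Npr3 and Nnat lie above the lean ones, while the lowest obese points of Cav1 lie among the lean points and below them.

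Likeness between genes was measured as the mean absolute difference of their log2 CPM over the 23 pads, after each was centred on its own mean, among 11788 genes with at least 4 CPM on average. The pads share diet and marker content, so likeness describes these libraries only. Closest to Mest were Ptchd4 (0.60), the Wnt antagonist Sfrp5 (0.80) and Unc79 (0.96), where Mest itself deviated by 3.02 on average. Closest to Npr3 were Lep (0.38), the fat cell hormone leptin, Lbp (0.38) and the growth factor Bmp3 (0.40), beside its own deviation of 2.12. Nnat was less closely followed, by Prr32 (0.70), Crtac1 (0.76) and Thbs2 (0.79), with a deviation of 1.83. Closest to Cav1 were Ehd2 (0.16), Mmp28 (0.19) and Tcaf1 (0.20), and to Cav2 Srpx2 (0.16), Cavin2 (0.18) and Ehd2 (0.18), with deviations of 1.00 and 0.84. Cav1 and Cav2 differed from each other by 0.20. For Gpr50 (Abat, 1.43) and Egfl6 (Zc3h11a, 0.92) the nearest gene was a large part of the gene's own deviation of 2.86 and 1.33 away.

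Centred on the group means, which removes diet and antibody, the order changed. Npr3 then lay 0.29 from Cav1 and 0.63 from Mest, where without that centring it lay 1.46 and 1.20 away. The nearest genes to Npr3 were Prrg3 (0.22), Heph (0.25) and Vgll3 (0.25), and to Mest the transporter gene Slc6a13 (0.49), Ptchd4 (0.56) and Prelp (0.56). Nnat lay nearest to Sncg (0.43), the lipolysis inhibitor gene G0s2 (0.43) and Fabp4 (0.45), the fatty acid carrier of fat cells, and 1.02 from Npr3. For Cav1 they were Ehd2 (0.14) and the lipid enzyme genes Dgat2 (0.16) and Mgll (0.17), and for Cav2 the fatty acid transporter gene Cd36 (0.13), Mmd (0.15) and Abcd2 (0.15). Gpr50 (Slc5a7, 1.07) and Egfl6 (Prr7, 0.83) again had no near neighbour.

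Of 11 further genes tied to fat expansion, 5 rose in the average and 1 fell, where 10.6% of all genes rose and 8.15% fell, with a median of 1.00, beside 0.12 for all genes; this list was drawn up with earlier results of these data known and gives no independent support. Lep had 4057 ± 2558 CPM in obese anti-PD-1 and 1246 ± 1190 CPM in obese IgG2a pads, against 131 ± 105 CPM in lean anti-PD-1 and 216 ± 123 CPM in lean IgG2a pads. It rose by 3.74 (SE 0.564; edgeR's test, adjusted p = 7.6e-05) in the average. Bmp3 rose by 3.45 (SE 0.465; edgeR's test, adjusted p = 2.0e-05) and Sfrp5 by 6.73 (SE 0.812; adjusted p = 5.8e-06). The lipid droplet coat gene Plin2 fell by 1.38 (SE 0.236; adjusted p = 2.8e-04), with 393 ± 178 CPM in obese anti-PD-1 and 274 ± 71.9 CPM in obese IgG2a pads, against 896 ± 237 CPM in lean anti-PD-1 and 818 ± 170 CPM in lean IgG2a pads. Plin1, the droplet coat protein of mature fat cells, did not pass (0.21, SE 0.355; adjusted p = 0.778).

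Markers of other cell types moved with obesity beside these genes. In the average 10.6% of all genes rose and 8.15% fell. Of 9 macrophage markers 5 rose, with a summed level of 328 to 2185 CPM in obese and 271 to 891 CPM in lean pads. Of 8 skeletal muscle markers 7 fell, with 2.26 to 358 CPM in obese and 1.26 to 3286 CPM in lean pads. Of 13 adipocyte markers 4 fell and none rose, and of 11 endothelial markers 1 fell. Of 3 tumor-like markers 3 rose and of 6 liver markers 3 rose, both lists scoring highest in obese IgG2a 5. Under anti-PD-1 none of either list rose. Of 10 fibroblast and progenitor markers 2 fell. With the mammary epithelium score as a covariate, the averaged obesity effect was 8.04 for Mest (edgeR's test, adjusted p = 0.00114), 5.05 for Npr3 (adjusted p = 0.00291) and 4.13 for Nnat (adjusted p = 0.0039). That score was 3.82 to 6.18 in obese and 5.76 to 7.75 in lean pads. Under IgG2a it did not overlap, with 4.26 to 5.31 in obese and 5.94 to 7.06 in lean pads. This fit therefore can hardly separate diet from epithelial content. With the B cell score the averaged effects of the 3 genes were 4.81, 3.11 and 3.32 and passed likewise. The part of macrophage and muscle content was not tested.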

How the data were processed

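RNA was sequenced from 23 mammary fat pads, 1 library per mouse, from non-directional poly(A) libraries. A minimum RNA integrity number of 5 is given for every sample. The part of RNA quality in the transcript shares and TPM was not tested. The deposited values are estimated counts and TPM per transcript, made by the authors from reads with a program not given in the sources used here; the submitters' processing notes name GRCm38, edgeR and limma. Both were summed per gene over GENCODE M21 transcripts (114200 of 115088 matched, the rest holding at most 0.208% of counts), and counts were rounded. edgeR 4.0.16 (quasi-likelihood, robust, TMM, filterByExpr with a minimum count of 10) was fitted with 1 mean per group over all libraries, and p-values were adjusted by Benjamini-Hochberg over 19882 genes. The common biological coefficient of variation was 0.805. The fit was also run on simulated counts with the same changes planted in both obese groups. These held no differences in tissue content, so they cannot show how the fit behaves where pads differ in it. The 6 comparisons were obesity under each antibody and averaged, anti-PD-1 in obese and in lean mice, and their interaction. Alternatives were limma 3.58.1, DESeq2 1.42.0, other filters, TPM pseudocounts, marker covariates, subsets of libraries and leaving out each mouse. Nothing beyond 1 library per mouse is labelled about separate cages or days, so p-values measure the spread between these mice. The B cell limit of 4 and the members and gene lists were chosen with earlier results of these data known. The text names the 7 genes, the 3 called genes of smallest p per list and comparison, the 3 closest genes per member, Lep, Adipoq and Plin1; Npr1, Npr2, Cavin1, Cavin2, Ehd2 (as a list gene), H19, Igf2, Gnas, Ndn, Lepr, Tgfbr1, Copg2 and Blcap were named after their values were seen. Replicates were numbered in accession order and no number pairs mice. A result of the further fat expansion list is not reported here.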

Additional observations from a re-analysis of the deposited data

Results flagged for a closer look

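Dixon's test on CPM compared the highest or lowest mouse with the rest. It was run on 28 sets of 5 or 8 mice (the 7 genes in the 4 groups), and 6 stood apart. Chance flags about 1 in 20 sets if values are normally distributed. CPM were not put on a log scale here and are skewed, so that rate need not hold. No excess of flags is read from the 6. Mest was far above the other mice of its group in obese IgG2a 4, with 1543 CPM beside 512 CPM in the next, and in lean anti-PD-1 2, with 97.5 CPM beside 7.04 CPM. Gpr50 stood apart in obese anti-PD-1 6, with 45.5 CPM beside 9.1 CPM. It also stood apart in lean IgG2a 1, where 0.114 CPM rests on 6 counts and the other 4 mice had 0. Egfl6 stood apart in obese IgG2a 3 (0.478 CPM, from 34 counts) and in lean anti-PD-1 3 (0.256 CPM, from 17 counts).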

How the results depend on the processing

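Mest, Npr3 and Nnat were higher in obesity under every alternative run and in each of the 3 obesity comparisons, and in the average each passed in all 38. Leaving out 1 mouse at a time gave 1108 to 2432 genes called for obesity under anti-PD-1, 495 to 1662 under IgG2a, 2991 to 4509 in the average, 0 to 643 for anti-PD-1 in obese mice, 0 in lean mice and 0 to 1 for the interaction; of the 7 genes, Gpr50 included, 4 to 6, 0 to 4, 4 to 6, 0, 0 and 0 were called. The reported counts are 1999, 1152, 3731, 107, 0 and 0 genes.

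In the order obesity under anti-PD-1, under IgG2a, averaged, anti-PD-1 in obese mice, in lean mice and interaction, the counts that moved by over 1.5 times were as follows. The DESeq2 test called 3122 (anti-PD-1), 2090 (IgG2a), 399 (obese), 22 (lean) and 50 (interaction). Voom called 0 in obese mice and 1 for the interaction, and with quality weights 6369, 4877, 8193, 2694, 1 and 629. In obese mice no filter gave 70 and a stricter filter 49. On log2(TPM + 1) they were 3576 under anti-PD-1, 5807 averaged and 0 in obese mice, and on log2(TPM + 0.1) 3708, 5777 and 0. With only the groups compared, they were 583 under IgG2a (1 of the 7 genes), 0 in obese and 1 in lean mice. With the adipocyte score they were 4980 under anti-PD-1, 2452 under IgG2a (5 of the 7), 6542 averaged and 0 in obese mice, and with the endothelial score 2615 under IgG2a (5 of the 7), 5922 averaged and 0 in obese mice. With the B cell score they were 2939 under IgG2a and 607 in obese mice, and with the mammary epithelium score 317, 402 and 703 for the 3 obesity comparisons. High B cell pads alone gave 574 under anti-PD-1 (2 of the 7), 1896 under IgG2a (1 of the 7) and 0 in obese mice, and the others 255 under IgG2a (0 of the 7), 767 in obese mice, 2 in lean mice and 2 for the interaction. Without obese IgG2a 2 and 5 they were 293 under IgG2a (0 of the 7), 2370 averaged and 0 in obese mice.

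Signs turned for values that had not passed. For Mest under anti-PD-1 in lean mice (0.18) they were -1.23 with voom, -1.34 with quality weights, -0.83 and -1.27 on TPM with 1 and 0.1, -0.98 and -1.27 with the B cell and epithelium scores, and -1.42 in high B cell pads. With the adipocyte score, Nnat was -0.34 in obese mice, Cav1 and Cav2 were both 0.16 in lean mice, and the interaction was -0.36 for Mest and -0.07 for Cav2. With the endothelial score, Nnat was -0.15 and Cav1 -0.01 in obese mice, Npr3 was 0.20, Cav1 0.34 and Cav2 0.29 in lean mice, and the interaction was -0.68 for Mest, -0.01 for Npr3, -0.35 for Cav1 and -0.27 for Cav2. With the B cell score, Cav1 was -0.10 and Cav2 -0.06 for obesity under IgG2a, and Nnat -0.07 in obese mice. In high B cell pads Cav1 was -0.37, -0.68 and -0.52 and Cav2 -0.19, -0.54 and -0.36 for obesity under anti-PD-1, under IgG2a and averaged, and Nnat was -0.46 in obese mice. Without obese IgG2a 2 and 5 Nnat was -0.01 in obese mice. Leaving out 1 mouse gave Nnat -0.05 to 0.41 in obese mice, and in lean mice Mest -2.34 to 0.77, Npr3 -0.90 to 0.04, Cav1 -0.35 to 0.16 and Cav2 -0.29 to 0.13. The cause was not tested.

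Of 38 alternatives, 10 for Cav1 and 9 for Cav2 passed in the average where the reported value did not. Gpr50 did not pass in the average in 3: voom (4.82, adjusted p = 0.0566), log2(TPM + 1) (1.01, adjusted p = 0.0623) and pads with a low B cell score (11.31, adjusted p = 0.0696). The median of all genes was 0.12, 0.15 with DESeq2 size factors and 0.23 with no filter. Egfl6 and lean Gpr50 are too shallow for a fold. No paired analysis was possible because the labels give no numbers that pair mice.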
